A study of Mus musculus with 8 samples.

Results

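The brush border digestive enzymes are hydrolases that enterocytes, the absorptive cells of the small intestine, carry on their microvilli, where they complete the breakdown of sugars and peptides just before uptake. 9 genes were taken by name from the 35199 genes of the count table. Sis (sucrase-isomaltase), Mgam (maltase-glucoamylase), Lct (lactase) and Treh (trehalase) split disaccharides and short glucose chains. Anpep (aminopeptidase N), Dpp4 (dipeptidyl peptidase 4), and Mep1a and Mep1b (the alpha and beta subunits of meprin, a metalloprotease) cut peptides and proteins, and Alpi (intestinal alkaline phosphatase) removes phosphate groups. Tuft cells are a rare chemosensory cell type of the same epithelium and are not known for a digestive role.

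The RNA came from tuft cells of Dclk1-DTR-ZSgreen mice, a BAC transgenic line made in CBA × C57BL/6J oocytes and crossed back to C57BL/6J. In this line, Dclk1 sequence on the BAC drives a diphtheria toxin receptor and a green fluorescent protein. Live epithelial cells with green fluorescence were sorted from intestine, which the study's methods give as jejunum, after 7 days with an osmotic pump that was implanted at 8 to 10 weeks of age and released either scopolamine at 0.5 mg per kg per day or sodium chloride (sham). Scopolamine blocks muscarinic acetylcholine receptors of every subtype, and the comparison asks how the transcriptome of sorted tuft cells differs when that signalling is blocked. There were 4 libraries per group, each from its own mouse, with total counts of 14343362 to 20857433 with scopolamine and 25769940 to 41428916 with sham, and even the shallowest sham library held more counts than the deepest scopolamine library. Of these, sham 1 and sham 3 were made from 200 pg of RNA with 15 amplification cycles and the others from 1000 pg with 10 cycles, and 3000 cells were sorted for scopolamine 1 and sham 1 against 4000 for each of the others. Replicate numbers name libraries and pair nothing.

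How pure the sorted cells were cannot be read from these libraries, which include no unsorted cells for comparison. All 26 tuft cell markers had counts in all 8 libraries, and their summed level was 23033 ± 5831 CPM (counts scaled to a common library size, with TMM factors that correct for composition) with scopolamine and 25288 ± 1704 CPM with sham (mean ± SD, n = 4). Dclk1, a kinase used as the tuft cell marker, was the most abundant of them at 4615 CPM on average. The cells were sorted on a reporter driven by Dclk1 sequence, so this level is not a separate check of the sort. Fabp1, an enterocyte marker, averaged 3241 CPM. The 9 enzymes together reached 375 ± 178 CPM with scopolamine and 114 ± 93.6 CPM with sham, a small part of each library. In sorted bulk RNA, a different number of enterocytes in the sort and a different amount of enzyme RNA per cell cannot be told apart.

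The mean level of each of the 9 enzymes was higher with scopolamine than with sham, from 2.63-fold for Dpp4 to 10.9-fold for Mep1a, but no enzyme passed edgeR's test across all genes and for each of them the groups overlapped (0 of 9 with all scopolamine libraries above all sham libraries, beside 1.92% of the genes tested). Under edgeR's quasi-likelihood test with Benjamini-Hochberg adjustment, 0 of 9 enzymes had an adjusted p under 0.1, beside 0 of the 12849 genes tested (0% of genes). At an unadjusted p under 0.05, 2 of the 9 were higher (Anpep and Mep1b) and 0 lower, beside 3.33% of all genes higher. DESeq2 called 1 enzyme higher at an adjusted p under 0.1, Anpep, beside 0.982% of the genes it tested. By limma-voom 0 enzymes were called, and 8 were higher at an unadjusted p under 0.05, beside 5.24% of genes. The median log2 fold change of the 9 enzymes was 1.57 in the edgeR fit, against -0.01 over all genes tested, and all 9 values were above 0 against 49.1% of all genes. The enzymes were chosen with results of these libraries known, and all but Alpi and Mep1b also stand in gene lists that the study drew from the same libraries, so their shared direction is not independent evidence.

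**Figure D1:**
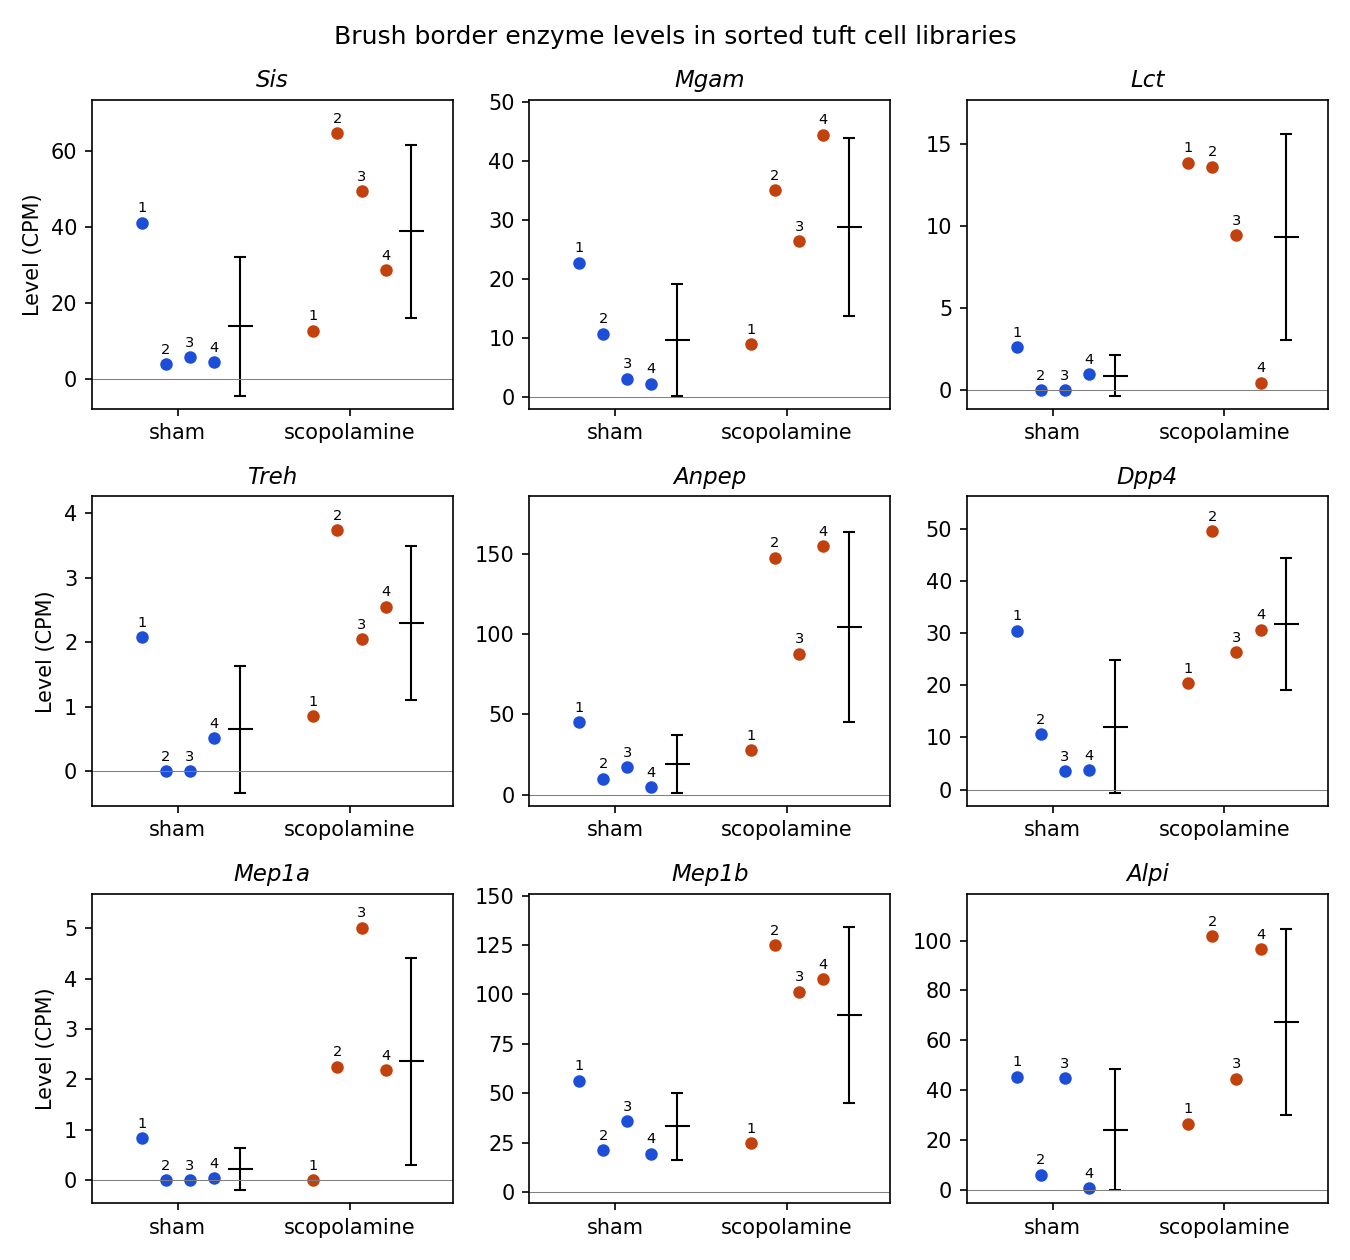
Level of each enzyme in CPM (vertical axis, linear) in the 4 sham libraries (blue) and the 4 scopolamine libraries (orange), each point numbered by its replicate, with the group mean (black dash) and SD (bar) beside the points. Sham 1 is the highest sham library for all 9 enzymes, and scopolamine 1 is the lowest scopolamine library for 8 of them.

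Among the peptidases, Anpep, which removes single amino acids from the free amino end of peptides, had the lowest unadjusted p of the 9. Its level was 27.6, 147, 87.7 and 155 CPM in scopolamine 1 to 4 and 45.1, 9.97, 16.9 and 4.51 CPM in sham 1 to 4. Scopolamine 2, 3 and 4 lay above every sham library, and scopolamine 1 lay below sham 1 but above the other sham libraries. The mean was 104 ± 59.4 CPM with scopolamine and 19.1 ± 18.0 CPM with sham (n = 4), a log2 fold change of 2.45 (SE 0.70; edgeR adjusted p = 0.812). DESeq2 gave a log2 fold change of 2.47 (SE 0.68; adjusted p = 0.0399), and permuting the group labels over log2 CPM in all 70 ways (exact, two-sided, smallest possible p 0.0286) gave p = 0.0571.

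Mep1b encodes the membrane-bound subunit of meprin and was at 24.5, 125, 101 and 108 CPM in scopolamine 1 to 4. In sham 1 to 4 it was at 56.4, 21.01, 35.8 and 19.4 CPM, the highest sham levels of any enzyme by mean. Again scopolamine 2, 3 and 4 stood above every sham library, while scopolamine 1 lay within the sham range. The log2 fold change was 1.44 (SE 0.49; edgeR adjusted p = 0.812; DESeq2 adjusted p = 0.182), and the exact permutation test gave p = 0.0857.

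Its partner Mep1a, whose product joins the beta subunit or is secreted, was close to the limit of counting. It had 0, 48, 71 and 46 counts in scopolamine 1 to 4 and 22, 0, 0 and 1 counts in sham 1 to 4. So 4 of the 8 libraries were at or under 3 counts, the level that a reading of 0 still allows, which for sham 2 is 0.0729 CPM. Its log2 fold change of 3.46 was the highest of the 9 in the edgeR fit and had the widest error there (SE 1.83; edgeR adjusted p = 0.813), whereas by limma-voom Lct (5.50) and Treh (4.46) were above Mep1a (4.09). Such floors cover counting error only, since reads amplified by PCR are not independent molecules.

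Dpp4, which cuts dipeptides from peptides with proline as the next-to-first residue and inactivates incretin hormones, had the lowest edgeR log2 fold change of the 9, close to that of Mep1b, whereas Mep1b was lowest by limma-voom (1.38 against 2.04 for Dpp4) and without sham 1 (1.81 against 2.41). Dpp4 was at 20.4, 49.5, 26.3 and 30.7 CPM in scopolamine 1 to 4 and at 30.4, 10.6, 3.54 and 3.70 CPM in sham 1 to 4. Sham 1 exceeded scopolamine 1 and 3 and nearly matched scopolamine 4, whereas the remaining sham libraries were below every scopolamine library. Its edgeR log2 fold change was 1.40 (SE 0.66; edgeR adjusted p = 0.812).

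Among the disaccharidases, Sis, which splits sucrose and isomaltose and is the classic marker of differentiated enterocytes, was at 12.8, 64.8, 49.5 and 28.8 CPM in scopolamine 1 to 4 and at 41.3, 4.01, 5.77 and 4.57 CPM in sham 1 to 4. Sham 1 was thus higher than scopolamine 1 and 4, and the other sham libraries lay below all scopolamine libraries. The means of 39.0 ± 22.8 and 13.9 ± 18.3 CPM (n = 4) gave a log2 fold change of 1.49 (SE 0.79; edgeR adjusted p = 0.813).

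Mgam, which frees glucose from starch fragments, was at 9.02, 35.1, 26.5 and 44.5 CPM in scopolamine 1 to 4 and at 22.8, 10.8, 3.10 and 2.27 CPM in sham 1 to 4. Here scopolamine 1 also fell below sham 2. The log2 fold change was 1.57 (SE 0.73; edgeR adjusted p = 0.812).

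Lct, the lactose-splitting enzyme that is highest in suckling animals and declines after weaning, departed from the others in its order of libraries. It was at 13.9, 13.6, 9.45 and 0.473 CPM in scopolamine 1 to 4, so that scopolamine 1, the lowest scopolamine library for the other 8 enzymes, was its highest. In sham 1 to 4 it was at 2.61, 0, 0 and 0.985 CPM, and scopolamine 4, with 10 counts, lay below sham 1 and sham 4. The log2 fold change of 3.39 had an SE of 1.63 (edgeR adjusted p = 0.812).

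Treh, which splits trehalose, a sugar of fungi and insects, had 17, 80, 29 and 54 counts in scopolamine 1 to 4 and 55, 0, 0 and 17 counts in sham 1 to 4. The mean of 2.30 ± 1.20 CPM with scopolamine against 0.647 ± 0.986 CPM with sham (n = 4) gave a log2 fold change of 1.83 and the highest adjusted p of the 9 (SE 1.51; edgeR adjusted p = 0.880). Exact permutation p-values of the sugar-splitting enzymes ran from 0.0857 for Sis, Lct and Treh to 0.114 for Mgam.

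Alpi, the phosphatase of the brush border, which also detoxifies bacterial lipopolysaccharide, was at 26.7, 102, 44.6 and 96.4 CPM in scopolamine 1 to 4 and at 45.4, 6.13, 44.9 and 0.746 CPM in sham 1 to 4. It was the only enzyme for which sham 3 came near sham 1, and both exceeded scopolamine 1 and 3. The log2 fold change was 1.47 (SE 0.93; edgeR adjusted p = 0.833), and the exact permutation p of 0.171 was the highest of the 9.

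To set enzymes beside each other, levels were divided by the length of each gene's exons. With scopolamine, the levels per kilobase were 34.1 ± 16.9 CPM per kb for Mep1b, 28.8 ± 16.0 for Alpi and 25.2 ± 14.4 for Anpep (n = 4), and these neighbours differed by less than their SD. A gap of 20.0 CPM per kb, more than the larger SD of 14.4, separated Anpep from Sis at 5.22 ± 3.06, followed closely by Dpp4 at 5.02 ± 1.99. Mgam, Lct, Treh and Mep1a followed at 3.31, 1.46, 1.12 and 0.683 CPM per kb. Of the gaps below Sis, that of 1.85 CPM per kb between Mgam and Lct also passed the larger SD, of 1.74, and the others did not. With sham, Mep1b at 12.6 ± 6.54, Alpi at 10.4 ± 10.3 and Anpep at 4.62 ± 4.36 CPM per kb again stood first in that order, and no neighbours in the sham order differed by more than the larger of their SDs. These SDs are between libraries, whereas the enzymes were measured in the same libraries, so they do not decide the order within a library. Anpep, for example, was above its neighbour Dpp4 in each sham library. Mep1a was last in both groups.

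The spread between libraries was largely shared by the enzymes. Their summed level was 136, 543, 352 and 468 CPM in scopolamine 1 to 4 and 247, 62.5, 110 and 36.7 CPM in sham 1 to 4. Scopolamine 2 held the highest level of all libraries for 5 enzymes, scopolamine 4 for 2, and scopolamine 1 and 3 for 1 each. Sham 2 and sham 3 each had 3 enzymes at 0 counts (Lct, Treh and Mep1a), although they were the deepest libraries. The make-up of the sum varied: Anpep held 33.1% of it in scopolamine 4 and 12.3% in sham 4, while Mep1b held 18.1% in scopolamine 1 and 52.8% in sham 4.

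The labels give mouse identifiers that begin with M for scopolamine 1, 2 and 3 and sham 1, and with N for scopolamine 4 and sham 2, 3 and 4. Within the M mice, the mean log2 CPM of the 9 enzymes was higher with scopolamine by 0.30, and within the N mice by 3.25, against 2.47 over all libraries. Each of these values rests on 1 library on one side, so neither has a test. Within the M mice the difference was -0.26 for Sis, -0.16 for Mgam, -0.14 for Treh and -0.03 for Dpp4, and it was 0.65 for Anpep and 2.18 for Lct. Within the N mice all 9 differences were positive, from 1.61 for Lct to 4.77 for Mep1a. With the letter as a term in the edgeR fit, the log2 fold change was 2.42 for Anpep and 1.31 for Sis, and that of Lct fell from 3.39 to 1.42 (adjusted p = 0.925). What the letter stands for is not given in the sources used here.

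RNA input also differed within the sham group. Among libraries from 1000 pg alone (scopolamine 1 to 4 against sham 2 and 4), edgeR gave a median log2 fold change of the enzymes of 3.15, and leaving out sham 1 by itself gave 3.01, against 1.57 with all libraries. Sham 1 and sham 3 held the highest sham sums of the enzymes, 247 and 110 CPM, against 62.5 and 36.7 CPM in sham 2 and 4. Leaving out sham 1, or both, therefore widens the difference by construction. The part of RNA input was not tested. Without sham 1, the edgeR log2 fold change of Sis went from 1.49 to 3.01 and that of Dpp4 from 1.40 to 2.41. That of Mgam went from 1.57 to 2.41, that of Treh from 1.83 to 3.70 and that of Mep1a from 3.46 to 7.40. The adjusted p of these enzymes ran from 0.205 for Sis to 0.559 for Treh, and 0 of the 9 enzymes were called. Without the libraries from 200 pg, the log2 fold change of Alpi went from 1.47 to 4.28 (edgeR adjusted p = 0.264) and that of Mep1a from 3.46 to 6.92 (edgeR adjusted p = 0.543). That of Sis went to 3.15, Anpep to 3.83, Treh to 3.11 and Dpp4 to 2.14, and those of the other enzymes also rose. In both settings every sham library left was under 3 counts for Mep1a, so its log2 fold changes there rest on that floor. Without both libraries from 3000 sorted cells, a choice made after seeing the data, edgeR called 36 of 13180 genes tested (35 higher, 1 lower). Among them were 3 of the 9 enzymes, Sis (log2 fold change 3.33, adjusted p = 0.0424), Mep1b (2.15, adjusted p = 0.0489) and Anpep (3.66, adjusted p = 0.0504). The libraries from 3000 cells are also the ones with the lowest scopolamine sum and the highest sham sum of the enzymes. Leaving them out therefore widens the difference by construction.

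Of 24 other enterocyte markers, all tested, 23 had a log2 fold change above 0, with a median of 1.13, and 9 were higher at an unadjusted p under 0.05, while 0 were called by edgeR or by DESeq2. Their summed level was 3959, 8975, 7114 and 5083 CPM in scopolamine 1 to 4 and 7871, 3208, 3260 and 3162 CPM in sham 1 to 4. Sham 1 was again the highest sham library and scopolamine 1 the lowest scopolamine library. Fabp1, a fatty acid binding protein, made up much of that sum at 3241 CPM on average and differed by 0.15 on the log2 scale (SE 0.33), and only Cyp3a11 and Dgat2 were at 0 in some library. Apoa1, an apolipoprotein of chylomicrons and high density lipoprotein, was at 470 ± 366 CPM with scopolamine and 136 ± 173 CPM with sham (n = 4; edgeR adjusted p = 0.812). Mttp, which loads lipid onto apolipoprotein B, had a log2 fold change of 1.13 (SE 0.39), and Apob itself 0.99 (SE 0.33). The part of enterocytes in the sort in the enzymes' difference was not tested.

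**Figure D2:**
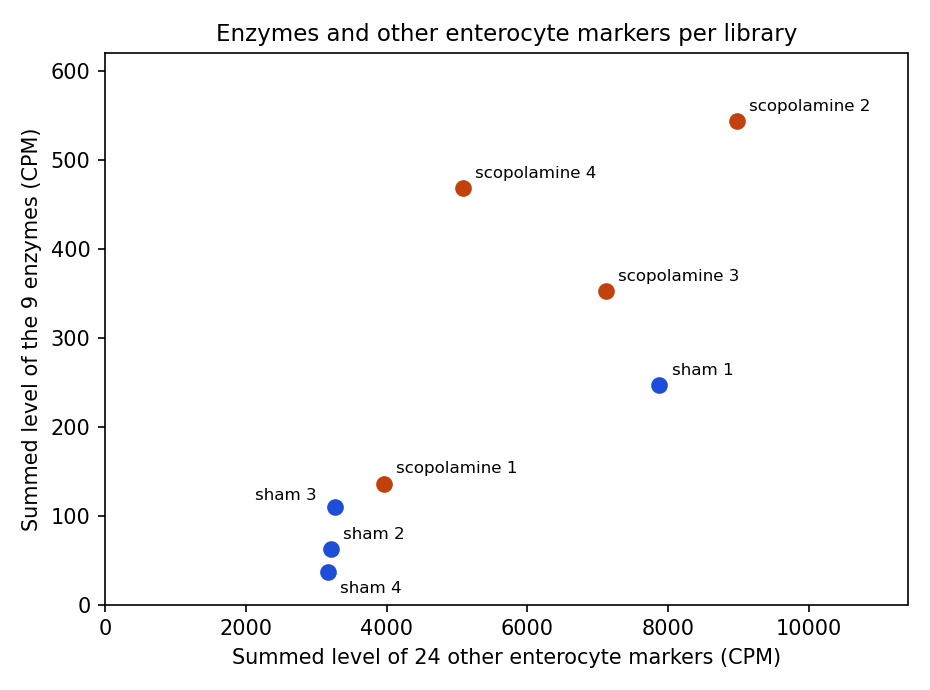
Summed level of the 9 enzymes (vertical axis, CPM) against the summed level of 24 other enterocyte markers (horizontal axis, CPM), 1 point per library, scopolamine in orange and sham in blue. Sham 2, 3 and 4 sit together at the lower left, with sham 1 at 7871 and 247 CPM, and scopolamine 4 lies highest for its marker level at 5083 and 468 CPM.

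The Paneth cell list (10 of 10 above 0, median log2 fold change 2.72, 3 at an unadjusted p under 0.05) had its highest sum, 13450 CPM, in scopolamine 4, against 945, 3622 and 1617 CPM in scopolamine 1 to 3 and 2249, 783, 1901 and 462 CPM in sham 1 to 4. Reg3b, an antimicrobial lectin that enterocytes make as well, was its most abundant gene at 1752 CPM, followed by Reg3g, and Itln1 was at 415 CPM in scopolamine 4. Defa22, Defa5 and Ang4 were at 0 in some libraries. The goblet cell list (9 of 10 above 0, median 1.32) had its highest sum in scopolamine 1, at 3552 CPM, against 2128, 683 and 1125 CPM in scopolamine 2 to 4 and 1379, 354, 1179 and 355 CPM in sham 1 to 4. Tff3 was its most abundant gene at 355 CPM, Zg16 reached 1614 CPM in scopolamine 1, and Bcas1 and Ramp1 were at 0 in some libraries. The enteroendocrine list (15 of 18 tested above 0, median 1.61) was highest in sham 3, at 1578 CPM, against 306, 183 and 299 CPM in sham 1, 2 and 4 and 487, 1036, 525 and 1150 CPM in scopolamine 1 to 4. Sct (secretin) was its most abundant gene at 233 CPM, and 9 of its genes, among them Tph1 and Cck, were at 0 in some libraries. edgeR called 0 markers of the Paneth, goblet and enteroendocrine lists, with 2 enteroendocrine (Insm1 and Fev) and 1 goblet marker (Zg16) higher at an unadjusted p under 0.05, and DESeq2 called 1, the granin Scg3, which is named for that call. The part of these cells in the enzymes' difference was not tested.

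The remaining cell type lists had medians closer to 0. Of 26 tuft cell markers 22 were below 0, with a median of -0.16, and the sweet and umami receptor subunit Tas1r3 had the lowest unadjusted p (log2 fold change -1.27, SE 0.34; edgeR adjusted p = 0.812; DESeq2 adjusted p = 0.02097). At an unadjusted p under 0.05, 2 tuft cell markers were lower, Tas1r3 and the prostaglandin D synthase Hpgds (-0.57, SE 0.20), and 0 were higher. The stem and cycling list had a median of -0.09 (4 of 10 above 0), yet 3 of its genes, the mitotic genes Birc5, Ccnb1 and Mki67, were higher at an unadjusted p under 0.05, as many as on the Paneth list, and 0 were lower. Mki67 is named for that count. The list had Slc12a2 as its most abundant gene at 60.5 CPM and Ccnb1 at a log2 fold change of 2.61 (SE 1.03), and Birc5 was at 2.19 (SE 0.65; edgeR adjusted p = 0.812), called by DESeq2 (adjusted p = 0.0654). The list summed to 309, 351, 197 and 311 CPM in scopolamine 1 to 4 and 348, 271, 282 and 223 CPM in sham 1 to 4, and Axin2 was at 0 in scopolamine 3. Lymphocyte and myeloid markers had a median of 0.28, with 9 of 11 tested above 0 and 0 at an unadjusted p under 0.05. Their sum was highest in sham 1, at 285 CPM, against 143, 217, 189 and 70.5 CPM in scopolamine 1 to 4 and 70.5, 101 and 76.1 CPM in sham 2 to 4, with Ptprc their most abundant gene at 81.2 CPM and Cd3e and Cd8a among those at 0 in some libraries. Gzma, a granzyme of intraepithelial lymphocytes, was at 66.9 CPM in sham 1, at most 1.43 CPM in the other sham libraries, and at 16.1, 49.2, 11.8 and 2.88 CPM in scopolamine 1 to 4. Stromal and blood markers summed to between 11.5 and 15.9 CPM in each library, of which Pecam1 held 12.1 CPM on average, with 2 of 10 tested and a median of -0.25. The globin gene Hbb-bs, which did not pass the filter, was at 1.55, 1.64, 0 and 0.804 CPM in scopolamine 1 to 4 and at most 0.0486 CPM in a sham library (log2 fold change 5.31, SE 1.73, in the edgeR fit on all genes with a count; adjusted p = 0.587).

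Other genes of digestion and uptake were mostly above 0 as well. Among 12 tested of 18 other brush border hydrolases, 11 were above 0 (median log2 fold change 1.63), and 4 were higher at an unadjusted p under 0.05. The most abundant was Enpep, aminopeptidase A, at 17.5, 105, 83.0 and 107 CPM in scopolamine 1 to 4 and 61.9, 12.9, 16.1 and 6.80 CPM in sham 1 to 4. Ace, the angiotensin-converting enzyme, had a log2 fold change of 2.52 (SE 0.89), and Nt5e, which makes adenosine from AMP, 2.37 (SE 0.74). Alpl, the tissue-nonspecific alkaline phosphatase, had no count in any library. DESeq2 called 2 genes of the list higher, Vnn1 and Alppl2, which did not pass the edgeR filter on low counts and are named for that call, and edgeR called 0.

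Carriers for the products of these enzymes showed the largest median of the digestive lists in the edgeR fit with all libraries, the only setting compared. Of 12 tested, 11 were above 0, with a median of 1.86, and 6 were higher at an unadjusted p under 0.05. Slc5a1, the sodium-coupled transporter of glucose and galactose, was at 56.3, 187, 134 and 142 CPM in scopolamine 1 to 4 and 39.9, 8.46, 34.5 and 8.15 CPM in sham 1 to 4. Its groups did not overlap. The log2 fold change was 2.51 (SE 0.57, edgeR adjusted p = 0.812), and DESeq2 called Slc5a1 (adjusted p = 0.00464). Without the sham libraries from 200 pg, edgeR called it as well (log2 fold change 3.94, adjusted p = 0.0444). Those libraries, sham 1 and sham 3, were the highest sham libraries for Slc5a1, so leaving them out raises its log2 fold change by construction. With amplification cycles as a covariate, edgeR also called it (3.97, adjusted p = 0.0317). Only the libraries from 200 pg had more cycles, so that fit takes the difference from the same libraries and is not a separate check. Slc3a2, the heavy chain of amino acid exchangers, was at 105 ± 50.01 CPM with scopolamine and 55.3 ± 16.6 CPM with sham (n = 4; edgeR adjusted p = 0.812), and its partner Slc7a8 had a log2 fold change of 2.05 (SE 0.71).

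Structural genes of the microvillus, which tuft cells need for their own tuft of microvilli, were split in direction. Of 15 tested, 8 were above 0 and 7 below, with a median of 0.04 and a summed level of 8739 ± 1507 CPM with scopolamine and 8675 ± 834 CPM with sham (n = 4). Cdhr5, a protocadherin that links microvilli, was at 1858 ± 358 and 1762 ± 395 CPM. Espn, an actin bundler, had a log2 fold change of -0.19 (SE 0.17) and Calml4 one of -0.33 (SE 0.13). Eps8, an actin capping protein of microvillus tips, had a log2 fold change of 1.77 (SE 0.65; edgeR adjusted p = 0.812), with 17.7 CPM in sham 1 and at most 5.60 CPM in the other sham libraries. At an unadjusted p under 0.05, 2 genes of the list were higher, Eps8 and the fimbrin Pls1 (0.58, SE 0.25), which is named for that count, and 1 was lower, Calml4.

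Of 17 intestinal transcription factors tested, 13 were above 0 with a median of 0.36, and their summed level was 2164 ± 201 CPM with scopolamine and 2160 ± 205 CPM with sham (n = 4). Known activators of these enzymes, Hnf4a and Cdx2, were well measured in both groups. Hnf4a was at 222 ± 14.9 and 233 ± 46.0 CPM, and Cdx2 at 77.7 ± 26.7 and 64.6 ± 21.3 CPM, with scopolamine and sham (n = 4). Gata4, which marks the proximal intestine, had a log2 fold change of 0.65 (SE 0.29; edgeR adjusted p = 0.812). The lowest unadjusted p of the list belonged to Hnf4g (1.14, SE 0.40) and Isx (2.16, SE 0.91), a homeobox gene of vitamin A uptake, while the abundant Cdx1 and Klf5 differed by -0.25 and 0.07.

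The genes whose log2 CPM over the 8 libraries was most like the mean of the 9 enzymes were Gm3776 (Pearson r 0.987), Lipg, Gsta1, Rhbg, Eci3, Mlxipl, Acp5, Guca2b, Gzmb and Akr1b7 (0.966). Spearman's rho ran from 0.881 for Gsta1 to 0.952 for Gm3776, Mlxipl and Acp5. Without sham 2 and sham 4, the libraries farthest from the median, r was between 0.938 for Gzmb and 0.983 for Rhbg, where sham 3, also low, stayed in and the genes had been picked with all 8 libraries. Gsta1, a glutathione transferase, is on the list of enterocyte markers, Mlxipl is a carbohydrate-sensing transcription factor, and Guca2b encodes uroguanylin, a hormone made by enterocytes, whereas Gzmb is on the lymphocyte list. These likenesses describe 8 libraries that differ in group, depth and RNA input together, and the genes were the closest of all that passed the filter.

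Most of the sequence of each enzyme transcript is not shared with other genes. On GRCm38 with GENCODE M21, Sis lies at chr3:72888557-72967863 on the minus strand, Anpep at chr7:79821803-79861059 on the minus strand, Lct at chr1:128284756-128328318 on the minus strand and Mgam at chr6:40628831-40769123 on the plus strand. Of the distinct 31-base words in its transcripts, the unit by which kallisto matches reads, Alpi shares 7.07% with transcripts of 3 other genes, among them Akp3, another alkaline phosphatase (80 of 163 shared words), the highest share of the 9, so that part of its reads could be split between these genes. Dpp4 shares 3.22% with the antisense gene Gm13561, which overlaps 232 bases of its exons, and whether strand was used in counting is not stated. Mgam shares 0.662% with Mgam2-ps, and Anpep, Lct and Mep1a share none.

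Since 8 of the 9 enzymes have a promoter in the RefSeq table for GRCm38.p6 and their genes varied together over the libraries, these windows of 300 bases (250 before to 50 after the start) were searched on both strands for short motifs of known activators. TTTAT, the core bound by CDX factors, was in 6 of 8 (Alpi, Dpp4, Lct, Mep1a, Mgam and Sis) and in 40.0% of all 32851 promoters. AGATAA, bound by GATA factors, was in 3 of 8 (Dpp4, Lct and Mgam) and in 11.2% of all, and CAAAGT, a part of the HNF4 motif, was in 3 of 8 (Alpi, Mep1a and Treh) and in 14.4%. A match is only a match of letters. Sis and Lct are shown as the pair with the most studied promoters, and Anpep as the enzyme with the lowest unadjusted p, which held none of these motifs. They read 5′ to 3′ along the gene's strand, with motif letters in capitals, and in Lct a match for CDX overlaps 1 for GATA. Sis is at chr3:72967814-72968113, minus strand, Lct at chr1:128328269-128328568, minus strand, and Anpep at chr7:79848161-79848460, minus strand, where the Anpep window lies inside the GENCODE gene, whose farthest start is upstream.
Sis: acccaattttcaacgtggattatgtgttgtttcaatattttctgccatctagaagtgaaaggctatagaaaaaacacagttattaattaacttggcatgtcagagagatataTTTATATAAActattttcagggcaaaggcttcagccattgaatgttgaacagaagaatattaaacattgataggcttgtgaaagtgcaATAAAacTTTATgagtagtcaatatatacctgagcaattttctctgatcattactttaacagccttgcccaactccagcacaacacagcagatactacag
Lct: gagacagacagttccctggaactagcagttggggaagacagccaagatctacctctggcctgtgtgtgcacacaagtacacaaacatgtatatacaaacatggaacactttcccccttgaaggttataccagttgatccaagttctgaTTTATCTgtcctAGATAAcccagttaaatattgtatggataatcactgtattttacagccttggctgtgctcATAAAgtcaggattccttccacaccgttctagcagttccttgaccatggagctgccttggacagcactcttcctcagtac
Anpep: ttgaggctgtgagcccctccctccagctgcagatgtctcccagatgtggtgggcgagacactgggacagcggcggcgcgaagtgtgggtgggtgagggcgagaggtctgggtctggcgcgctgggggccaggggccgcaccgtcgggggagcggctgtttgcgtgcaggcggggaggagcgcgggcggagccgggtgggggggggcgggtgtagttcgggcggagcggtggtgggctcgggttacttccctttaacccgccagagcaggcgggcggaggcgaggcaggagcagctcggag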

How the data were processed

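RNA from sorted tuft cells of 8 mice was amplified and sequenced in 4 scopolamine and 4 sham libraries. The authors made the deposited estimated counts per gene with bcl2fastq 2.20, kallisto 0.44.0 on the GRCm38 transcriptome and tximport; annotation release and strand use are not stated. Rounding to whole numbers before testing changed 0 values. Of 35199 genes, 12849 passed filterByExpr, all 9 enzymes among them, and were tested with edgeR 4.0.16 in R 4.3.3 (TMM, quasi-likelihood test, no covariate; called at a Benjamini-Hochberg adjusted p below 0.1). Standard errors are the log2 fold change divided by the root of the F statistic. DESeq2 1.42.0 (Wald test) and limma 3.58.1 (voom) were alternatives. Log2 CPM used a prior count of 2. Exact permutation tests were two-sided. Tested on simulated counts, the tools recovered nearly all changed genes, but DESeq2 made more false calls than its threshold allows. How the tools perform at the levels, fold changes and spread between libraries of the enzymes was not tested. No replicate pair agreed within counting error alone, which separate mice are not expected to do. Depth limits the values through a floor of 3 counts. Named genes are the 9 enzymes, the 2 most abundant genes and the 2 of lowest unadjusted p from each list, known regulators (not all reported here) and the 10 genes most alike. The enzymes and lists were chosen with earlier results of these data known. No reads were analysed here.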

Additional observations from a re-analysis of the deposited data

Results flagged for a closer look

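Of 20 sets of 4 libraries examined (each enzyme and their sum, in each group), a library stood apart from the other members of its group in 2. Chance would give about 1 in 20 for independent, normally distributed values, which these sets are not known to be, since the enzymes vary together and their sum holds them all. Both concern sham 1. For Sis, sham 1 was at 41.3 CPM and the next sham library at 5.77 CPM, a gap of 0.953 of the group's range. For Mep1a, sham 1 was at 0.833 CPM and the next sham library at 0.0298 CPM, which is 1 count, under the 3 counts that a reading of 0 still allows, a gap of 0.964 of the range. Both gaps pass Dixon's critical value for 4 libraries. Sham 1 was made from 200 pg of RNA and from 3000 sorted cells. Among the sham libraries it also had the highest summed enterocyte, lymphocyte, Paneth, goblet, and stem and cycling cell markers. The part of any of these was not tested.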

How the results depend on the processing

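The log2 fold changes of the enzymes were positive in all 159 combinations of enzyme and alternative, and 155 kept their side of the threshold. The others are Anpep by DESeq2 and Sis, Mep1b and Anpep without both libraries from 3000 sorted cells. These alternatives reuse the same libraries, so they are not independent. The differences within the M mice, negative for Sis, Mgam, Treh and Dpp4, are not among them. The count of genes called was 0 in the edgeR fit (770 at an unadjusted p under 0.05) and 190 by DESeq2, 9 without the sham libraries from 200 pg, 5 with amplification cycles as a covariate and 36 without the libraries from 3000 cells, an alternative chosen after seeing the data. Leaving out 1 library gave 0 to 2 calls, with 2 without sham 1 and 1 without scopolamine 4. The count of enzymes called was 1 by DESeq2 (beside 190 of 14462 genes), 3 without the libraries from 3000 cells (beside 36 of 13180 genes) and 0 elsewhere. The median log2 fold change of the enzymes, 1.57, was 2.65 by limma-voom, 3.15 without the libraries from 200 pg, 3.18 with cycles as a covariate, 3.33 without the libraries from 3000 cells, and 1.25 to 3.01 with 1 library left out, highest without sham 1. Only the libraries from 200 pg had more cycles, so the fit with cycles and the fit without those libraries are not separate checks. The log2 ratio of their summed level, 1.72, was 2.92 without the libraries from 200 pg and 1.42 to 2.43 with 1 library left out. Sham 1 and sham 3, the libraries from 200 pg, held the highest sham sums, so leaving them out raises this ratio by construction. Where a value moved, the cause was not tested. A filter of at least 10 counts in every library left Lct, Treh and Mep1a without a value. Sequencing depth cannot be told apart from treatment, being higher throughout the sham group, and Mep1a, Treh and Lct rest on few counts. No paired analysis was possible because replicate numbers were given in accession order and pair no libraries.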
